A study of Bos taurus with 24 samples.

Results

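A set of 10 genes of prostaglandin E2 and prostacyclin production, reception and breakdown were followed through an LPS challenge of bovine skin cells. They were PLA2G4A, PTGS1, PTGS2, PTGES, PTGES2, PTGES3, PTGIS, PTGER2, PTGER4 and HPGD. The members were picked by gene symbol, and the 10 symbols each matched 1 of the 27550 rows that carried a symbol, in tables of 59846 rows per sample. The samples were dermal fibroblasts, which build and maintain the connective tissue of skin, cultured from shoulder biopsies of Holstein (dairy) and Angus (beef) heifers in the second year of life. There were 24 samples from 4 animals of each breed, each taken at 0, 2 and 8 h of lipopolysaccharide (LPS, an outer membrane molecule of Gram-negative bacteria), used at 100 ng/ml. All cultures had been grown in DMEM with fetal bovine serum, insulin-transferrin-selenium and antibiotics, frozen at the third passage and revived together. Lysates of duplicate wells were pooled, so a sample stands for 1 animal at 1 hour. No untreated culture at hour 2 or 8 was among the samples used, so the effects of LPS and of hours in the plate cannot be told apart. Each breed was represented by 4 heifers, and breed cannot be told apart from anything else that the heifers of a breed shared.

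Prostaglandins are short-lived lipids made from arachidonic acid. A cytosolic phospholipase A2, PLA2G4A, frees the acid from membranes, and the cyclooxygenases PTGS1 (COX-1) and PTGS2 (COX-2) turn it into prostaglandin H2. Terminal synthases then make the individual products, prostaglandin E2 by PTGES, PTGES2 and PTGES3 and prostacyclin by PTGIS. Prostaglandin E2 acts on receptors that include PTGER2 (EP2) and PTGER4 (EP4), and the dehydrogenase HPGD begins its inactivation. In many cell types PTGS1 is present at rest, whereas PTGS2 is known as an early response gene of inflammation. In skin, prostaglandin E2 is linked with redness, swelling and pain. The measurements here are of messenger RNA, and neither lipids nor proteins were measured.

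Levels are given as CPM, the counts of a gene over all counts of the library, expressed per 1000000 after TMM scaling of library sizes. The total counts ranged from 51014538 to 104406293 per sample, so that 1 CPM stood for 51.0 to 104.4 counts. All 10 fibroblast markers checked, among them COL1A1, PDGFRA and VIM, reached 1 CPM in at least 12 of 24 samples. Of the 8 immune cell markers 1 did so (CD68), as did 2 of 5 endothelial, 0 of 6 keratinocyte, 1 of 4 melanocyte and 3 of 4 smooth muscle or pericyte markers. Summed, the immune markers gave 2.69 to 6.11 CPM in the Holstein samples and 3.16 to 6.10 CPM in the Angus samples. The summed keratinocyte markers reached 13.7 CPM in a Holstein sample against at most 0.745 CPM in Angus, while the smooth muscle or pericyte markers summed to 110.0 to 315.0 CPM (Holstein) and 92.1 to 179.0 CPM (Angus). The part of these cells in the results was not tested. In 4 samples (Angus 4, Holstein 2 and Holstein 4 at hour 0 and Angus 3 at hour 2) each count of COL1A1 covered 66.2 to 67.1 bases, against 111.8 to 119.0 in the other 20 samples. By this row they are called the samples counted differently below. They also had the highest shares of matched reads, 96.23 to 96.54%, against at most 95.25% in the other 20. Their counts per matched read were the highest too, 1.562 to 1.712 against at most 1.542. Whether they were processed otherwise is not stated. Fits across hours without them hold different animals at the hours compared, since the other hours of their animals were kept. For PTGS2 the covered bases per count lay between 81.4 and 85.7 in all 24 samples, and for PTGS1 between 72.2 and 82.8.

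**Figure D1:**
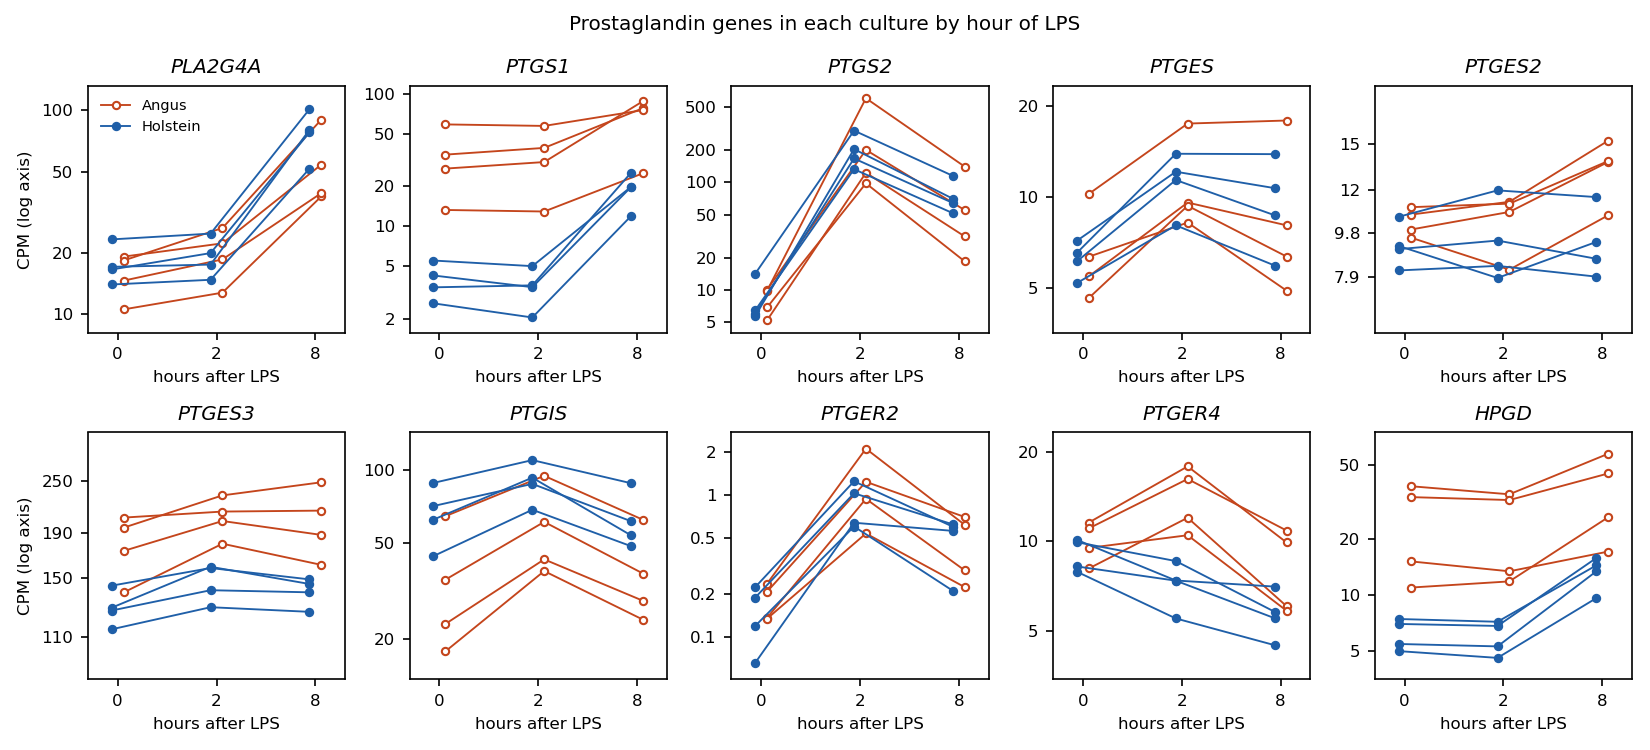
Level of each of the 10 genes in CPM (log axis, scaled separately for each gene) at 0, 2 and 8 h of LPS, with the hours spaced evenly. Each line is 1 animal, with filled blue points for Holstein and open orange points for Angus (4 animals a breed). PTGS2 peaked at hour 2 in all 8 animals, PLA2G4A was highest at hour 8 in all 8, and the PTGS1 and HPGD lines of the breeds did not cross at hour 0 or 2.

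A gene was called past the threshold with a false discovery rate (FDR, from edgeR's likelihood-ratio test over all rows tested) under 0.05, a change of 2-fold or more and a mean level over 1 CPM. In each comparison 9 of the 10 genes were tested, since PTGER2 did not reach 1 CPM in enough samples. At hour 2, 1 of the 9 (PTGS2) was higher than at hour 0 past the threshold with the breeds combined, where 2.82% of all 20157 rows tested passed in either direction and 2.08% as higher. At hour 8, 2 of the 9 (PTGS2 and PLA2G4A) were higher past the threshold, against 1.42% of all rows in either direction and 1.07% as higher. From hour 2 to hour 8, 1 of the 9 rose past the threshold (PLA2G4A) and 1 fell (PTGS2), against 2.76% of all rows, 1.15% rising and 1.61% falling. For the statements on single animals below, 17.8% of all rows were higher at hour 2 than at hour 0 in all 8 animals, 13.8% were higher and 14.0% lower at hour 8 than at hour 0, and 17.6% were higher and 17.2% lower at hour 8 than at hour 2. The median log2 fold change over the 9 genes was 0.20 at hour 2 and 0.56 at hour 8, while that over all rows was -0.004 and -0.007. The members were chosen with earlier results of these data known, so these medians are a description and were not tested.

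PTGS2, the inducible cyclooxygenase (chromosome 16, 69263776 to 69271399, minus strand, build UMD v3.1), gave the greatest change of the 9 genes at hour 2. In Holstein animals 1 to 4 its level was 6.02, 5.69, 6.44 and 14.1 CPM at hour 0, 167, 204, 133 and 304 CPM at hour 2, and 64.4, 70.5, 51.7 and 115 CPM at hour 8. In Angus animals 1 to 4 it was 10.0, 5.2, 9.79 and 6.86 CPM at hour 0, 201, 123, 608 and 98.1 CPM at hour 2, and 55.2, 31.4, 140 and 18.4 CPM at hour 8. Every sample of hour 2 was above every sample of hour 0, and every animal was lower at hour 8 than at hour 2 yet above its own hour 0. The log2 fold change with the breeds combined was 4.84 ± 0.34 (SE) at hour 2, a 28.6-fold rise (edgeR, FDR = 1.18e-31), and 3.09 ± 0.34 at hour 8 (FDR = 1.84e-14). From hour 2 to hour 8 PTGS2 fell by 1.74 ± 0.41 on the log2 scale (edgeR, FDR = 0.000356). It rose past the threshold within each breed at both hours. In Holstein the rise was 4.64 ± 0.35 at hour 2 and 3.23 ± 0.34 at hour 8 on the log2 scale.

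In Angus the rise of PTGS2 was 5.01 ± 0.54 at hour 2 and 2.94 ± 0.55 at hour 8 on the log2 scale, and it leaned on animal 3, the highest Angus sample at both hours. Without animal 3 the Angus rise was 4.26 at hour 2 (edgeR, FDR = 1.27e-26) and 2.25 at hour 8 (FDR = 5.25e-05). Without the 4 samples counted differently the Angus rise at hour 2 was 4.07 (FDR = 6.66e-23). That fit lacks Angus 3 at hour 2 and Angus 4 at hour 0, so different animals stand at these hours. At hour 8 the quasi-likelihood F test put the Angus rise just outside the FDR limit (FDR = 0.0539), while with the animal as a block it was 2.57 (FDR = 1.82e-13). Between animals of a breed, the fold rise at hour 2 ran from 20.6 to 35.9 in Holstein and from 14.3 to 62.1 in Angus, and the ranges overlapped. The ratio of the hour 8 to the hour 2 level was 0.345 to 0.389 in the 4 Holstein and 0.187 to 0.275 in the 4 Angus animals, with no overlap. Of all rows, 6.05% showed every Holstein animal above every Angus animal in the change from hour 2 to hour 8, and the difference between the breeds in this step was not tested.

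LOC100138376 (chromosome 16, 69240114 to 69271548, plus strand) encloses PTGS2 on the opposite strand, with all 7624 bases of the PTGS2 span inside it. The library kit did not keep strand, so reads from these genes cannot be told apart. In the 24 samples LOC100138376 had from 0.604 to 0.661 counts per count of PTGS2, a nearly fixed ratio while PTGS2 itself ranged from 5.2 to 608 CPM. Its log2 fold change with the breeds combined was 4.81 at hour 2 and 3.09 at hour 8, close to the 4.84 and 3.09 of PTGS2. Its covered bases per count, 125.3 to 139.9, exceeded those of every member. The values of LOC100138376 are therefore not a separate measurement from those of PTGS2.

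PLA2G4A, the phospholipase that supplies arachidonic acid (chromosome 16, 69443238 to 69620712, plus strand), rose late. In Holstein animals 1 to 4 its level was 16.5, 17.0, 13.9 and 23.2 CPM at hour 0, 19.9, 17.4, 14.7 and 24.8 CPM at hour 2, and 77.9, 80.1, 51.7 and 101 CPM at hour 8. In Angus animals 1 to 4 it was 19.1, 10.5, 18.3 and 14.6 CPM at hour 0, 22.2, 12.7, 26.4 and 18.5 CPM at hour 2, and 54.1, 37.8, 90.0 and 39.2 CPM at hour 8. The hour 8 samples lay wholly above those of hours 0 and 2, while hours 0 and 2 overlapped. The log2 fold change at hour 8 was 1.99 ± 0.21 with the breeds combined (edgeR, FDR = 1.45e-16), 2.14 ± 0.22 in Holstein (FDR = 1.52e-18) and 1.82 ± 0.31 in Angus (FDR = 3.1e-06). At hour 2 it was 0.23 ± 0.17 (FDR = 0.41), although every animal was slightly higher than at hour 0 on the TMM scale. Without TMM, Holstein 2 (16.8 CPM at both hours) and Holstein 3 (13.9 against 14.0 CPM) were not. From hour 2 to hour 8 the fold rise was 3.52 to 4.59 in the 4 Holstein and 2.12 to 3.41 in the 4 Angus animals. These ranges did not overlap, as for 6.05% of all rows in that direction, and the difference was not tested.

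PTGS2 and PLA2G4A point away from each other, 171838 bases apart on chromosome 16, and the short LOC100295047 between them had a median of 0 CPM at each hour. They answered at different hours. The median over the 8 samples of an hour was 6.65, 184 and 59.8 CPM for PTGS2 and 16.8, 19.2 and 66.0 CPM for PLA2G4A at hours 0, 2 and 8. The intervals without a gene symbol between them had medians of at most 0.44 CPM at any hour.

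PTGS1, the cyclooxygenase usually described as constitutive (chromosome 11, 93219287 to 93245048, plus strand), did not stay at its resting level. Its level in Holstein animals 1 to 4 was 4.25, 2.62, 5.51 and 3.46 CPM at hour 0, 3.47, 2.05, 5.00 and 3.58 CPM at hour 2, and 19.8, 12.0, 19.9 and 25.4 CPM at hour 8. Its level in Angus animals 1 to 4 was 34.7, 13.3, 27.2 and 58.6 CPM at hour 0, 39.0, 12.9, 30.5 and 57.1 CPM at hour 2, and 77.8, 25.1, 87.8 and 75.1 CPM at hour 8. All 8 animals were highest at hour 8, and the level at hour 2 was 0.784 to 1.12 of that at hour 0 in the same animal. In Holstein, PTGS1 rose past the threshold at hour 8, with a log2 fold change of 2.28 ± 0.28 (edgeR, FDR = 2.56e-13), and all 4 hour 8 samples were above all of hour 0. In Angus the log2 fold change was 0.99 ± 0.47 (FDR = 0.322), and the hour 8 and hour 0 samples overlapped.

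With the animal as a block, which compares each culture with its own hour 0, the hour 8 rise of PTGS1 passed the threshold in Angus too, at 1.03 on the log2 scale (edgeR, FDR = 8.48e-07). With the breeds combined it was 1.19 ± 0.60 without the block (FDR = 0.207) and 1.65 with it (FDR = 6.54e-11), and from hour 2 to hour 8 it was 1.16 ± 0.63 (FDR = 0.19) and 1.72 (FDR = 6.99e-10). The blocked fits put 1.62% and 3.00% of all rows past the threshold in those comparisons. At hour 2, when PTGS2 was at its peak, PTGS1 had a log2 fold change of 0.03 ± 0.72 (FDR = 0.99).

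**Figure D2:**
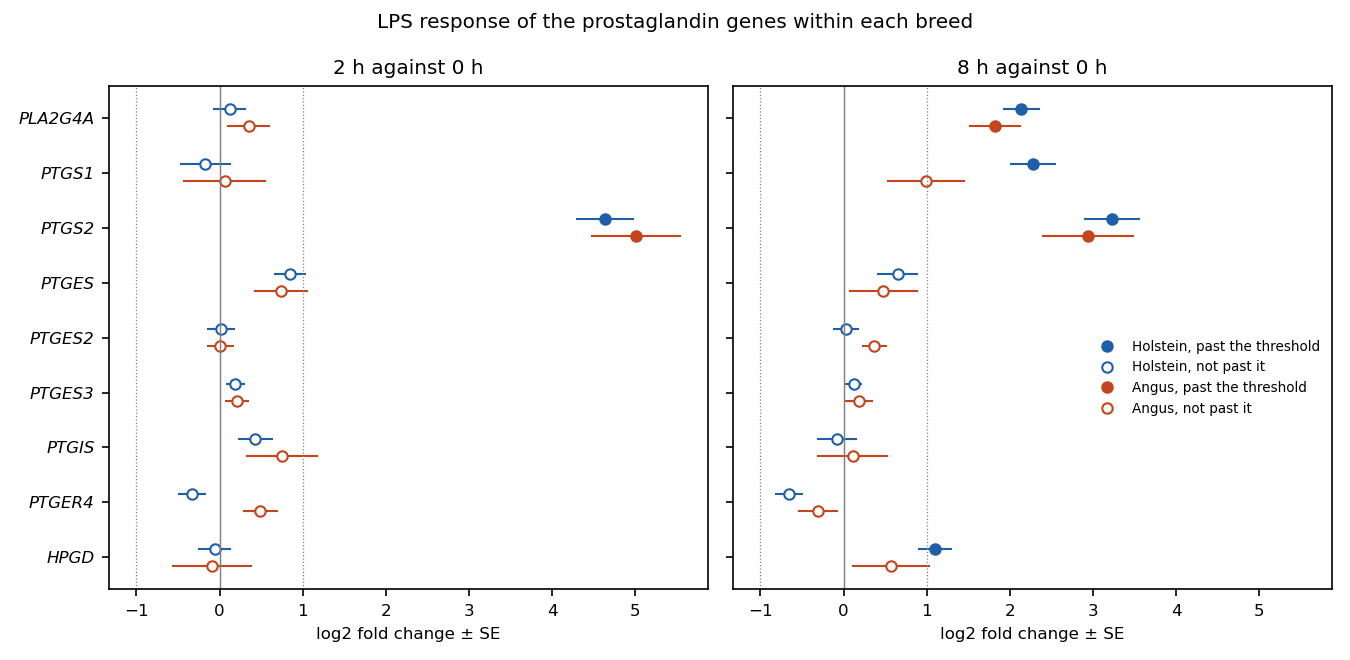
Log2 fold change from hour 0 at hour 2 (left) and hour 8 (right) of the 9 genes tested, for Holstein (blue) and Angus (orange), n = 4 animals each. Points are edgeR estimates with bars of ± 1 SE, filled where past the threshold. Dotted lines mark a 2-fold change. PTGS2 stood alone at hour 2, and at hour 8 PLA2G4A and PTGS2 were filled in both breeds and PTGS1 and HPGD in Holstein.

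PTGES, the inducible synthase that works with PTGS2 in prostaglandin E2 production (chromosome 11, 100143653 to 100155090, minus strand), was higher at hour 2 than at hour 0 in all 8 animals. The Holstein animals, in order of number, had 7.16, 6.53, 5.19 and 6.12 CPM at hour 0 and 12.1, 13.9, 8.05 and 11.4 CPM at hour 2. The Angus animals, in the same order, had 5.46, 4.63, 10.2 and 6.34 CPM at hour 0 and 9.57, 9.34, 17.4 and 8.22 CPM at hour 2. The hours did not overlap in Holstein, and in Angus only animal 3 at hour 0 reached into the hour 2 range. The log2 fold change with the breeds combined was 0.80 ± 0.19, inside the FDR limit (edgeR, FDR = 0.000314) but under the fold limit. Of all rows, 22.0% passed the FDR limit in this comparison. At hour 8 it was 0.56 ± 0.25 (FDR = 0.132), with 7 of 8 animals above their hour 0 and Angus 4 below it. Without the 4 samples counted differently the hour 2 value was 0.65 with the breeds combined (FDR = 0.0246). Within Holstein the hour 2 value was 0.85 ± 0.19 (edgeR, FDR = 0.000117), inside the FDR limit and under the fold limit. Within Angus it was 0.74 ± 0.32 (FDR = 0.124), and 0.41 without the samples counted differently (FDR = 0.486), both outside the FDR limit.

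PTGES2 (chromosome 11, 98770575 to 98775940, minus strand) and PTGES3 (chromosome 5, 57091367 to 57112471, plus strand) are usually described as the constitutive prostaglandin E2 synthases, and PTGES3 is also a co-chaperone of HSP90. PTGES2 lay between 7.88 and 15.2 CPM in all 24 samples, and its log2 fold change with the breeds combined was 0.01 ± 0.11 at hour 2 (FDR = 0.97) and 0.21 ± 0.14 at hour 8 (FDR = 0.352). In Angus the 4 animals were 1.11- to 1.43-fold higher at hour 8 than at hour 0, while the Holstein animals lay between 0.955 and 1.10 of their own hour 0. The Angus log2 fold change at hour 8 was 0.37 ± 0.15, outside the FDR limit (edgeR, FDR = 0.171). In the interaction fit described below, the breeds differed in this change by -0.35 ± 0.20 (edgeR, unadjusted P = 0.0842), not past the threshold. PTGES3 lay between 115 and 249 CPM, and its log2 fold change was 0.20 ± 0.15 at hour 2 (FDR = 0.414) and 0.15 ± 0.16 at hour 8 (FDR = 0.605). It was nevertheless higher than at hour 0 in all 8 animals at both hours, by at most 1.29-fold, except that without TMM Angus 1 was lower at hour 2 (210.0 against 222.0 CPM), and with the animal as a block its FDR was 0.000106 at hour 2.

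PTGIS, the prostacyclin synthase (chromosome 13, 78319046 to 78368752, minus strand), was higher at hour 2 than at hour 0 in all 8 animals and lower again at hour 8 in all 8. The Holstein levels in animals 1 to 4 were 88.3, 62.3, 44.0 and 70.9 CPM at hour 0, 110, 92.8, 68.4 and 87.5 CPM at hour 2, and 88.0, 53.6, 48.4 and 61.3 CPM at hour 8. The Angus levels were 17.8, 35.2, 64.3 and 23.1 CPM at hour 0, 38.2, 61.0, 94.4 and 42.7 CPM at hour 2, and 24.1, 37.3, 62.2 and 28.8 CPM at hour 8. The animals were spread so widely, above all in Angus, that the hours overlapped in each breed. The log2 fold change at hour 2 was 0.55 ± 0.31 with the breeds combined (edgeR, FDR = 0.224), and with the animal as a block it was 0.64 (FDR = 6.23e-13), inside the FDR limit and under the fold limit. At hour 8 it was -0.01 ± 0.32 (FDR = 0.986).

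The prostaglandin E2 receptors PTGER2 and PTGER4 both signal through cyclic AMP, and they differed in course. PTGER2 (chromosome 10, 11773687 to 11786080, minus strand) was low and came nearest to the limit of detection at hour 0. It had 3 to 22 counts per sample at hour 0, 45 to 172 at hour 2 and 13 to 60 at hour 8. In Holstein animals 1 to 4 these were 0.225, 0.190, 0.120 and 0.066 CPM at hour 0, 1.25, 1.03, 0.601 and 0.639 CPM at hour 2, and 0.599, 0.622, 0.212 and 0.560 CPM at hour 8. In Angus animals 1 to 4 they were 0.209, 0.137, 0.238 and 0.135 CPM at hour 0, 1.24, 0.941, 2.12 and 0.537 CPM at hour 2, and 0.701, 0.295, 0.617 and 0.225 CPM at hour 8. Every sample of hour 2 was above every sample of hour 0. When no filter on low counts was applied, the log2 fold change was 2.63 at hour 2 (edgeR, FDR = 7.46e-14) and 1.51 at hour 8 (FDR = 0.000106). The mean level of 0.59 CPM at hours 0 and 2 kept PTGER2 from being called.

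PTGER4 (chromosome 20, 33762478 to 33774648, minus strand) lay below hour 0 in Holstein and above it in Angus at hour 2, with neither breed past the threshold. Holstein animals 1 to 4 had 9.94, 10.1, 8.24 and 7.91 CPM at hour 0, 8.59, 7.39, 7.38 and 5.51 CPM at hour 2, and 5.80, 7.05, 5.52 and 4.48 CPM at hour 8. Angus animals 1 to 4 had 11.6, 8.11, 9.51 and 11.1 CPM at hour 0, 17.9, 12.0, 10.5 and 16.2 CPM at hour 2, and 9.92, 6.06, 5.85 and 10.9 CPM at hour 8. Each Holstein animal was lower at hour 2 than at hour 0, as 25.9% of all rows were, each Angus animal was higher, as 25.8% were, and all 8 were below their hour 0 at hour 8. Within a breed the log2 fold change at hour 2 was -0.33 ± 0.17 in Holstein (edgeR, FDR = 0.186) and 0.49 ± 0.21 in Angus (FDR = 0.115), neither past the FDR limit. The Angus value without the 4 samples counted differently was 0.65, inside the FDR limit (FDR = 0.0288) and under the fold limit. At hour 8 it was -0.66 ± 0.17 in Holstein, inside the FDR limit (FDR = 0.00198, and 0.061 without Holstein 1) and under the fold limit, and -0.31 ± 0.24 in Angus (FDR = 0.663). With the breeds combined it was -0.47 ± 0.17 at hour 8 (FDR = 0.0504), and -0.51 with the animal as a block (FDR = 1.85e-06). Angus 3 at hour 2, the lowest Angus sample there, is 1 of the 4 samples counted differently. The direction in this animal turned with the scaling, since in CPM without TMM it had 9.72 at hour 0 and 8.72 at hour 2. In Angus 4 the lower level at hour 8 turned too, since without TMM it had 12.2 CPM there, above its hour 0.

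HPGD, the enzyme that inactivates prostaglandins (chromosome 8, 6642815 to 6680546, minus strand), was higher at hour 8 than at hours 0 and 2 in all 8 animals. Holstein animals 1 to 4 had 7.41, 6.97, 4.98 and 5.44 CPM at hour 0, 7.16, 6.80, 4.58 and 5.28 CPM at hour 2, and 14.4, 15.8, 9.60 and 13.4 CPM at hour 8. Angus animals 1 to 4 had 38.3, 15.1, 10.9 and 33.5 CPM at hour 0, 34.7, 13.4, 11.8 and 32.3 CPM at hour 2, and 57.3, 17.1, 26.1 and 44.9 CPM at hour 8. The hour 8 samples stood clear of hour 0 in Holstein and overlapped it in Angus. In Holstein it rose past the threshold at hour 8, by 1.10 ± 0.20 on the log2 scale (edgeR, FDR = 9.76e-07). In Angus the log2 fold change was 0.57 ± 0.47 (FDR = 0.69), and 0.60 with the animal as a block (FDR = 0.00134). With the breeds combined it was 0.69 ± 0.47 (FDR = 0.39), and 0.84 with the block (FDR = 3.24e-10), under the fold limit in each case.

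Counted within each breed, 1 of the 9 genes tested (PTGS2) rose past the threshold at hour 2 in Holstein, where 3.14% of all rows passed (2.41% as higher), and 1 (PTGS2) in Angus, where 2.98% did (1.97% as higher). At hour 8, 4 of the 9 (PTGS1, PTGS2, PLA2G4A and HPGD) rose in Holstein, against 2.51% of all rows (1.91% as higher), and 2 of the 9 (PTGS2 and PLA2G4A) in Angus, against 0.863% (0.592% as higher). With the animal as a block 3 of the 9 rose in Angus, against 1.23% of all rows.

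The breeds differed most in PTGS1 and HPGD. At each of the 3 hours 2 of the 9 genes tested, the same PTGS1 and HPGD, were lower in Holstein past the threshold. Of all rows, 3.81% passed in either direction at hour 0, 4.45% at hour 2 and 3.24% at hour 8, and 2.08%, 2.02% and 1.03% did so as lower in Holstein. At hour 0 the mean level of PTGS1 was 33.4 ± 19.0 CPM (SD, n = 4) in Angus and 3.96 ± 1.23 CPM in Holstein, and every Holstein sample lay below every Angus sample. The log2 difference, Holstein against Angus, was -3.08 ± 0.40 at hour 0 (edgeR, FDR = 7.01e-10), -3.31 ± 0.42 at hour 2 (FDR = 1.37e-10) and -1.78 ± 0.37 at hour 8 (FDR = 0.000159). At hour 8 the breeds touched, since Angus 2 at 25.1 CPM was just below Holstein 4 at 25.4 CPM. Without the 4 samples counted differently the hour 0 difference was -2.36 (FDR = 3.09e-05).

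HPGD had a mean level of 24.5 ± 13.5 CPM (SD, n = 4) in Angus and 6.20 ± 1.17 CPM in Holstein at hour 0, and every Holstein sample lay below every Angus sample at all 3 hours. Of all rows, 7.99% were separated in that direction at hour 0, 11.1% at hour 2 and 9.12% at hour 8. The log2 difference was -1.98 ± 0.37 at hour 0 (edgeR, FDR = 3.3e-05), -1.96 ± 0.37 at hour 2 (FDR = 1.55e-05) and -1.45 ± 0.34 at hour 8 (FDR = 0.00119). Without the 4 samples counted differently, which leaves 3 Angus and 2 Holstein samples at hour 0, the hour 0 difference was -1.79 and no longer passed (FDR = 0.0702). Within Angus the animals varied more than within Holstein, with an SD of 0.55 of the mean for HPGD and 0.57 for PTGS1 at hour 0 against 0.19 and 0.31.

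**Figure D3:**
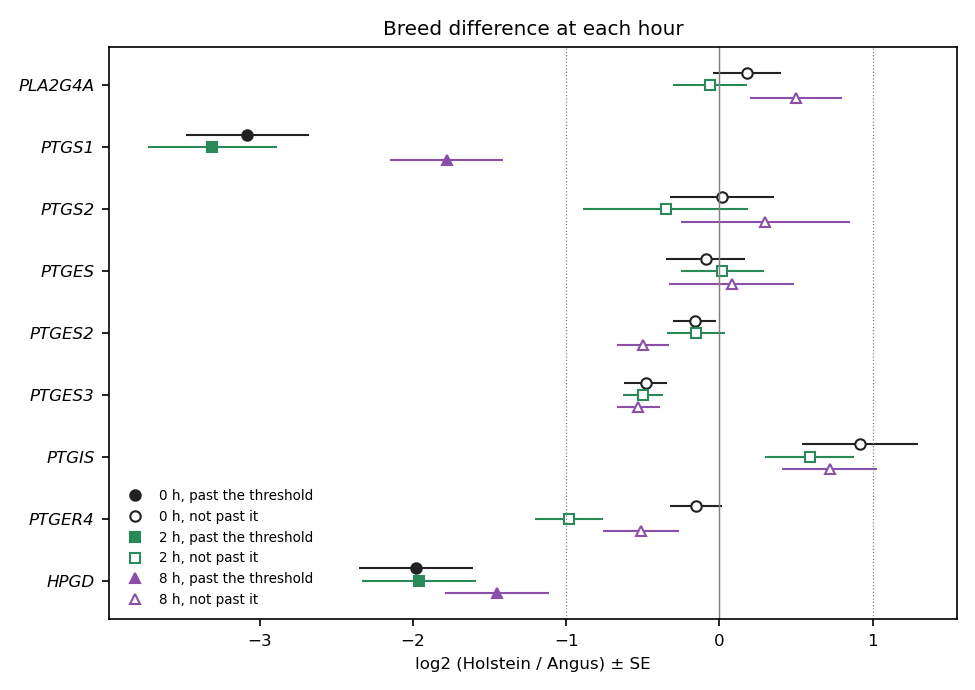
Log2 difference between the breeds (Holstein over Angus) for the 9 genes tested at 0, 2 and 8 h of LPS, n = 4 animals a breed. Points are edgeR estimates with bars of ± 1 SE, filled where past the threshold, and dotted lines mark a 2-fold difference. PTGS1 and HPGD were filled and lower in Holstein at all 3 hours, and PTGS1 lay nearer to 0 at hour 8 than before.

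PTGES3 was lower in Holstein at all 3 hours inside the FDR limit and under the fold limit, with log2 differences of -0.48 ± 0.14 at hour 0 (edgeR, FDR = 0.0126), -0.50 ± 0.13 at hour 2 (FDR = 0.00157) and -0.53 ± 0.14 at hour 8 (FDR = 0.00376). The hour 0 difference left the FDR limit in 5 of the 8 fits without 1 animal (Holstein 1, 2 or 4 or Angus 1 or 4, FDR up to 0.0817) and without the 4 samples counted differently (-0.34, FDR = 0.566). Its level at hour 8 was 145, 139, 149 and 126 CPM in Holstein animals 1 to 4 and 214, 188, 161 and 249 CPM in Angus animals 1 to 4, with no overlap. PTGER4 was lower in Holstein at hour 2, by a log2 difference of -0.98 ± 0.22 (FDR = 0.000279), just under the fold limit, and the samples did not overlap. Without the 4 samples counted differently this difference was -1.09 and past the threshold (FDR = 2.32e-06). PTGES2 was lower in Holstein at hour 8, at -0.50 ± 0.17 (FDR = 0.0282), but left the FDR limit in 6 of the 8 fits without 1 animal (all but Holstein 4 and Angus 3, FDR up to 0.123). The FDR limit alone was passed by 13.8%, 20.1% and 16.5% of all rows at the 3 hours and by 3, 4 and 4 of the 9 genes.

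PTGIS was the gene with the greatest positive difference, 0.92 ± 0.38 at hour 0 (FDR = 0.0907), 0.59 ± 0.29 at hour 2 (FDR = 0.129) and 0.72 ± 0.31 at hour 8 (FDR = 0.0889), none inside the FDR limit. Angus 3 alone among the Angus animals reached the Holstein range at each hour. Without it the difference was 1.39 at hour 0 (FDR = 4.73e-05) and 1.06 at hour 8 (FDR = 0.000174), past the threshold at both, and 0.92 at hour 2 (FDR = 0.000219), under the fold limit. The hour 0 difference was 0.75 without the 4 samples counted differently (FDR = 0.68). PTGS2 gave no breed difference inside the FDR limit, at 0.02 ± 0.34 at hour 0, -0.35 ± 0.54 at hour 2 and 0.30 ± 0.55 at hour 8, with a 95% interval at hour 2 of -1.41 to 0.71. Its direction turned on single animals. At hour 2 it was 0.52 without Angus 3 (FDR = 0.237), and without the 4 samples counted differently it was -0.42 at hour 0 (FDR = 0.729). At hour 8 it was 1.10 without Angus 3 (FDR = 0.0273) and -0.01 without Angus 4 (FDR = 0.996). PLA2G4A had log2 differences from -0.06 to 0.50 and PTGES from -0.09 to 0.08, with FDR above 0.05 at each hour. Without Angus 3 the PLA2G4A difference at hour 8 was 0.83 and inside the FDR limit (FDR = 0.00362).

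The balance of the cyclooxygenases within a culture can be read as the counts of PTGS2 per count of PTGS1 in its library. In Holstein animals 1 to 4 there were 1.42, 2.17, 1.17 and 4.08 counts of PTGS2 per count of PTGS1 at hour 0, 48.2, 99.5, 26.5 and 85.0 at hour 2, and 3.25, 5.89, 2.60 and 4.53 at hour 8. In Angus animals 1 to 4 there were 0.290, 0.392, 0.360 and 0.117 at hour 0, 5.16, 9.53, 20.0 and 1.72 at hour 2, and 0.710, 1.25, 1.60 and 0.245 at hour 8. The breeds did not overlap at any hour, and both were highest at hour 2. These ratios are not corrected for transcript length, so a value of 1 does not mean equal numbers of transcripts. They are a description of values already given and were not tested.

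**Figure D4:**
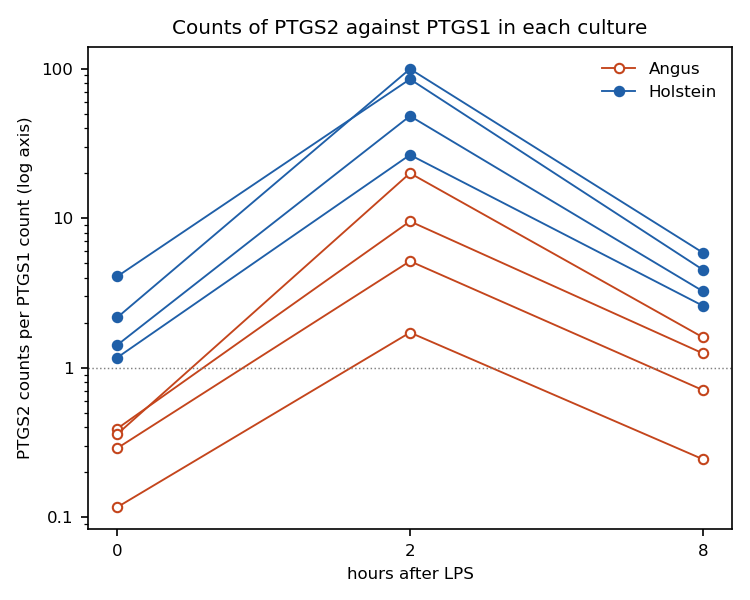
Counts of PTGS2 per count of PTGS1 in each culture (log axis) at 0, 2 and 8 h of LPS, with hours spaced evenly. Each line is 1 animal, filled blue points for Holstein and open orange points for Angus, and the dotted line marks a ratio of 1. The lowest Holstein sample was above the highest Angus sample at each hour, at 26.5 against 20.0 at hour 2.

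Whether the breeds answered LPS differently was tested by a breed by LPS interaction term. None of the 9 genes passed the threshold at hour 2, where 0.278% of all rows did, or at hour 8, where 0.0982% did. At an unadjusted P under 0.05 there was 1 gene at each hour, and the F test and DESeq2 called 0 at each. At hour 2 the gene was PTGER4, with an interaction of -0.81 ± 0.27 on the log2 scale (edgeR, unadjusted P = 0.00245, FDR = 0.259). Every Holstein animal had a lower signed change than every Angus animal, as had 4.5% of all rows. With the animal as a block it was -0.80 (FDR = 6.97e-06), and by the F test with that block the FDR was 0.0134, inside the FDR limit and under the fold limit in both.

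At hour 8 the gene was PTGS1, which rose 3.61- to 7.35-fold in the 4 Holstein animals and was 1.28- to 3.23-fold higher in the 4 Angus animals, without overlap, as were 4.39% of all rows in that direction. The interaction was 1.29 ± 0.58 on the log2 scale (edgeR, unadjusted P = 0.0282, FDR = 1). With the animal as a block it was 1.24 and past the threshold (FDR = 0.00149), where 0.491% of all rows passed, and by the F test with that block it was 1.22 and did not pass (FDR = 0.1). Without the 4 samples counted differently the unblocked interaction was 0.57 (FDR = 1). Angus 4, Holstein 2 and Holstein 4 then lacked hour 0 but kept hour 8, so different animals stood at these hours. For PTGS2 the interaction was -0.37 ± 0.69 at hour 2 and 0.27 ± 0.70 at hour 8, with 95% intervals of -1.73 to 0.99 and -1.10 to 1.64, so that a 2-fold difference in the response could not be told from none with 4 animals a breed. The hour 2 value turned to 0.39 without Angus 3 (FDR = 1) and to 0.93 without the 4 samples counted differently (FDR = 0.644).

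Of 56 other gene symbols of eicosanoid metabolism and signalling looked up, some of them alternative names of the same gene, 52 were found. Of these, 22 were expressed highly enough to be tested in most comparisons. Among the genes of leukotriene production, LTA4H, the leukotriene A4 hydrolase, had mean levels of 22.2 to 31.8 CPM in the 6 groups of breed and hour, while ALOX5 (at most 0.10 CPM) and its activating protein ALOX5AP (at most 0.03 CPM) stayed under 0.5 CPM in every sample. So did the prostacyclin receptor PTGIR (at most 0.21 CPM) and the thromboxane synthase TBXAS1 (at most 0.32 CPM). With the breeds combined, 0 of 22 passed the threshold at hour 2, against 2.82% of all rows (edgeR, with 4 at an unadjusted P under 0.05 and 0 by the F test or DESeq2) and 1 at hour 8, against 1.42%. That gene was PTGFR, the receptor of prostaglandin F2α, with a log2 fold change of 1.09 ± 0.39 (FDR = 0.045), and DESeq2 called 1 gene there and the F test 0. From hour 2 to hour 8, 3 of 22 passed, against 2.76% of all rows. PTGDR, a prostaglandin D2 receptor, rose by 1.39 ± 0.40 (FDR = 0.0041), the lipoxygenase ALOX12 rose by 1.07 ± 0.30 (FDR = 0.00308), and TBXA2R, the thromboxane receptor, fell by 1.07 ± 0.13 (FDR = 2.92e-15). TBXA2R shares its span with HMG20B and ALOX12 with LOC100848492 on the opposite strand, so their counts are uncertain. The median log2 fold change over the 22 was -0.09 at hour 2 and -0.02 at hour 8, against 0.20 and 0.56 over the 9. Both lists were chosen with earlier results known, and the difference was not tested.

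Within the breeds, 2 of the 22 (PTGDR and ALOX12) rose past the threshold at hour 8 in Holstein, by 1.09 ± 0.38 and 1.06 ± 0.35 on the log2 scale (edgeR, FDR = 0.0348 and 0.0262), but neither by the F test, and 2.51% of all rows passed there. Between the breeds, PTGR1, a reductase that acts after HPGD in prostaglandin breakdown, was lower in Holstein past the threshold at hour 2 (-1.11 ± 0.35, FDR = 0.0149) and hour 8 (-1.03 ± 0.35, FDR = 0.0252). At hour 0 its difference was -0.97 ± 0.34 (FDR = 0.0338), under the fold limit. Its mean level at hour 0 was 10.4 ± 5.35 CPM (SD, n = 4) in Holstein and 20.4 ± 4.19 CPM in Angus, and the ranges, 5.44 to 17.5 and 15.0 to 25.1 CPM, overlapped. ALOX12 was higher in Holstein at hour 8 (1.23 ± 0.35, FDR = 0.00721). These were 1 of the 22 at hour 2, against 4.45% of all rows, and 2 at hour 8, against 3.24%. By the F test 0 of the list passed at hour 2 and 1 at hour 8. At hour 0, edgeR put 0 of the 22 past the threshold, against 3.81% of all rows, with 9 at an unadjusted P under 0.05, 0 by the F test and 1 by DESeq2. For the interactions 0 of the 22 passed, against 0.278% of all rows at hour 2 and 0.0982% at hour 8, with 1 at an unadjusted P under 0.05 at each hour and 0 by the F test or DESeq2.

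As a description over the 24 samples, which share animals and libraries, the genes with the levels most alike to each member were found by Pearson's r of log2(CPM + 1). For PTGS2 they were TGIF1 (r = 0.96), the chemokine CXCL2 (0.956) and PDXDC1 (0.952). For PTGS1 they were HMGN3 (0.973), LOC526200 (0.93) and the TGF-beta co-receptor TGFBR3 (0.908), and for HPGD they were MPZL1 (0.939), TGFBR3 (0.931) and CDC25B (0.927), so that TGFBR3 stood in both. For PLA2G4A they were the kinase FYN (0.939), XDH (0.934) and LOC507055 (0.933). For PTGIS they were KDM5B (0.914), the fibroblast receptor PDGFRB (0.909) and COPZ2 (0.904), and for PTGES3 PPP1CC (0.973), LOC782688 (0.969) and POLE3 (0.968). The values were lower for PTGER4, with C1QTNF2 (0.884), RNF112 (0.867) and PRDM10 (0.862), for PTGES2, with NKAIN1 (0.869), PHB2 (0.855) and SLC19A1 (0.85), and for PTGES, with DCAF5 (0.855), FAM65C (0.849) and IFNAR2 (0.835).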

How the data were processed

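The 24 poly(A) RNA libraries (Illumina TruSeq) were grouped by the breed, animal number and hour in the sample labels. The authors filtered reads, aligned them to UMD v3.1 with NextGENe and deposited a table per sample with raw read counts per row, a row being a whole gene span, introns included. Per the submitters' processing notes, CASAVA 1.7 was also used. The deposited coverage signal (mean coverage per row) was used for a check of the counting alone. The summed counts were 1.50 to 1.71 times the matched reads, highest in the samples counted differently, so a read can count more than once. Whether it did so within a row or in different rows was not tested. Levels are not corrected for transcript length, since transcript lengths were not at hand. Values of different genes set side by side, as in the counts of PTGS2 per count of PTGS1, are thus descriptions only.

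Counts were tested with edgeR 4.0.16 in R 4.3.3. Rows with at least 1 CPM in 50% of the samples compared were kept, libraries were scaled by TMM, and the likelihood-ratio test was adjusted by Benjamini-Hochberg over all rows. Standard errors came from the fitted model. Each comparison used its own samples. The main fits held the hour alone, the breed alone, or for the interactions both and their product, with no term for the animal. Samples of the same animal at different hours were thus treated as independent. With the breeds combined, the fits across hours had no term for breed either. Alternatives were the F test, DESeq2 1.42.0, other size factors, no filter, FDR alone, the animal as a block, and leaving out animals or samples. The block holds because animal numbers mark the same animal at each hour: the lowest of the correlations of deviations from group means between hours of an animal was 0.432, with means of 0.611 to 0.658. The 36 pairs of samples within groups differed by more than counting noise (chi-square of 29.6 or more per degree of freedom, over rows with 10 or more counts), so none was a duplicate. Scripts were tested on simulated data.

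Genes named were the 10 members, LOC100138376, genes of a wider eicosanoid list past the threshold (and LTA4H and some of its genes under 0.5 CPM, named after their values were seen), and the 3 most alike rows per member. The members and lists were chosen with earlier results of these data known.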

Additional observations from a re-analysis of the deposited data

Results flagged for a closer look

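In 4 of 60 groups of 4 animals (10 genes, 6 groups each) an animal stood apart from the other 3 by Dixon's criterion at the 95% level, which chance alone passes in about 5% of groups. Holstein 4 at hour 0 had 14.1 CPM of PTGS2 against 5.69 to 6.44 CPM in the other Holstein animals, and it is among the 4 samples counted differently. Angus 3 at hour 2 had 17.4 CPM of PTGES against 8.22 to 9.57 CPM in the other Angus animals. The same sample had 8.20 CPM of PTGES2 against 10.8 to 11.4 CPM, and it too is among the 4 samples counted differently. Holstein 3 at hour 8 had 0.212 CPM of PTGER2, which is 13 counts, against 0.560 to 0.622 CPM.

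The breed by LPS interaction was inside the FDR limit for 2 genes when the animal was a block. For PTGER4 at hour 2 the interaction was -0.80 on the log2 scale, under the fold limit, as each of 4 Angus animals was higher than at hour 0 and each of 4 Holstein animals lower on the TMM scale (in Angus 3 the direction turned without TMM). For PTGS1 at hour 8 it was 1.24, as the Holstein animals rose by a greater fold, from a lower level. By the F test with the same block it was outside the limit (FDR = 0.1). Without the block neither was inside the FDR limit.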

How the results depend on the processing

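The 19 called values of the 10 genes were recomputed under 264 alternatives in all, of which 262 kept the call, 2 lost it and 0 changed direction. The FDR limit alone is counted among these alternatives. It reused the main fit, so it could neither lose a call nor change a direction. The first loss was PTGS2 in Angus at hour 8 by the F test, which left 1 called gene in place of 2. The other was HPGD at hour 0 between breeds without the 4 samples counted differently, which left 1 called gene in place of 2 and fewer samples. With the FDR limit alone, the called genes were 2 at hour 2 with the breeds combined and in Holstein, 5 in place of 4 at hour 8 in Holstein, 3 between the breeds at hour 0 and 4 between the breeds at hours 2 and 8. Leaving out 1 animal at a time gave 2 to 3 called genes between breeds at hour 0 (3 without Angus 3, PTGIS added), 2 to 3 at hour 2 (3 without Holstein 1, Angus 2 or Angus 3, PTGER4 added) and 2 to 4 at hour 8 (4 without Angus 3, with PTGS2 at 1.10 and PTGIS added), and did not change the other counts. The breed difference of PTGS2 at hour 8, 0.30 and not called, turned to -0.01 without Angus 4. With the animal as a replicate block 1 gene, PTGS1, passed for the interaction at hour 8, and PTGS1 joined the called genes at the hour 8 comparisons given above. The F test with this block was chosen after seeing the data. Between breeds the same number names different animals (mean correlation of deviations -0.112 to -0.08), and the block left 2 called genes at each hour.

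Over all rows, the FDR limit alone gave 28 calls in place of 20 for the interaction at hour 8 and 1.57 to 8.99 times the calls in the other comparisons. The interaction calls were 56 at hour 2 (16 by the F test, 126 with the block, 33 without Angus 4, 34 without Holstein 1) and 20 at hour 8 (0 by the F test, 100 with the block, 6 without the 4 samples, 2 without Holstein 4, 8 without Angus 1, 62 without Angus 3). In Angus at hour 8 the 178 calls were 90 by the F test. Between breeds the 777 at hour 0 were 258 without the 4 samples and 515 without Angus 4, and the 671 at hour 8 were 446 without Angus 4 and 1128 without Angus 3. The causes were not tested. A depth of 3 counts stood for 0.029 to 0.059 CPM, counting error only, which limits PTGER2. With 4 animals a breed, p-values describe the spread between these animals. In the main fits with the breeds combined, that spread includes the difference between the breeds.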
